A study of Mus musculus with 3 samples.

Results

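Purine-poor constitutive coding exons were those internal exons, lying wholly in coding sequence, in which A and G made up at most 47% of the nucleotides on the sense strand. They were taken from the canonical transcripts of protein-coding genes (GENCODE M39 annotation, GRCm39 build), were 51 to 399 nt long and had the same coordinates in every protein-coding transcript of their gene that spanned them. Of 100578 constitutive internal coding exons, 18204 (18.1%) met this rule, in 7081 genes and with up to 34 in 1 gene. The rule used sequence and annotation and no crosslink.

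Crosslinks were measured by iCLIP of endogenous Tra2β in germ cells released from the testes of adult wild type mice, with a polyclonal antibody. Each of the 3 replicates was a separate library, there was 1 group, and all samples shared genotype, age class and tissue. In iCLIP, ultraviolet light joins a protein to the RNA it touches and a sequenced cDNA ends next to the joined nucleotide, so 1 unique cDNA is called a crosslink below. Germ cells of all stages were pooled in each library, and no input, unspecific antibody or Tra2β-deficient library was analysed here, so the background of crosslinks is given from the antisense strand and from the rest of the same transcripts.

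Tra2β is an SR-like splicing activator that recognises purine-rich RNA with GAA at its core and helps the spliceosome to recognise exons that carry such sequence. Constitutive exons, as defined here, are included in every annotated coding mRNA of their gene that spans them. Such exons are often recognised through strong splice sites together with exonic enhancers. Exons poor in purines are rich in pyrimidines, which in coding sequence often stand for codons of hydrophobic amino acids, such as those of membrane-spanning segments.

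Some of the exons are shown first, because they carried the most crosslinks, were called above their own transcripts, or held a nucleotide crosslinked in every library. Sequences are from GRCm39, written 5′ to 3′ on the sense strand with T for U, and capitals mark each nucleotide that was crosslinked in at least 1 library.
Wasf2 exon 7, chr4:132919416-132919571, plus strand: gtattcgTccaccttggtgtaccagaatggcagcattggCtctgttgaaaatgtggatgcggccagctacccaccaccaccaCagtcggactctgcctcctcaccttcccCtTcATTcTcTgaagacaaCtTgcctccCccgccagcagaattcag
Phf7 exon 4, chr14:30970000-30970091, minus strand: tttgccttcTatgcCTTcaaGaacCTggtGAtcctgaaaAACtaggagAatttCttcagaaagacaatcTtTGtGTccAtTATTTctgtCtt
Srpk2 exon 6, chr5:23745373-23745479, minus strand: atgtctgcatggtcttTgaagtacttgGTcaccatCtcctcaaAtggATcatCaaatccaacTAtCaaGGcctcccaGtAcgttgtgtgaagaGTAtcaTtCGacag
Ap3d1 exon 22, chr10:80548430-80548501, minus strand: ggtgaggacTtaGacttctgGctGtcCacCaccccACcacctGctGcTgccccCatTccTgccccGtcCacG
Tsbp1 exon 15, chr17:34667740-34667796, plus strand: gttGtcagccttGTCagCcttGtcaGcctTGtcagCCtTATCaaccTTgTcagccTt
Nasp exon 12, chr4:116460085-116460141, minus strand: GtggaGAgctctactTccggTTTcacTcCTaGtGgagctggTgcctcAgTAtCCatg
The densest 41 nt of Wasf2 exon 7 (chr4:132919514-132919554) held 14 of its 17 crosslinks in a stretch with 24.4% purines. In Ap3d1 exon 22, Tsbp1 exon 15 and Nasp exon 12 there was no GAA at all, and their densest 41 nt had 31.7%, 31.7% and 36.6% purines. Phf7 exon 4 and Wasf2 exon 7 held 4 GAA each and Srpk2 exon 6 held 2. In Phf7 exon 4 and Srpk2 exon 6 the densest 41 nt were richer in purines than the exon, with 46.3% against 42.4% and 48.8% against 46.7%.

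The exons differed from the other constitutive exons in more than purines. Their median length was 125 nt against 126 nt. Their median C content was 30.2% against 23.3% and their median U content 26.1% against 21.8%. GAA started 1.23 times per 100 nt against 2.7 times, and 4070 of the exons (22.4%) held no GAA, against 4.77% of the other exons. U stood at the second position of 31.9% of their codons, against 26.6% in the other exons. A second position U is shared by the codons of phenylalanine, leucine, isoleucine, methionine and valine.

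Gene families of membrane proteins were rich in such exons. Of the constitutive exons of Slc genes, which encode solute carriers, 1104 of 2193 (50.3%) were purine-poor, and of those of Tmem genes 219 of 496 (44.2%). The share was 32.8% for Gpr and Adgr receptors, 29.3% for ion channels, 28.9% for Abc transporters and 26.7% for Atp genes. It was 4.56% for Cep (centrosomal) genes, 6.34% for Ccdc (coiled-coil) genes, 9.02% for ribosomal protein genes and 9.65% for Dnah (axonemal dynein heavy chain) genes, all under the 18.1% of all constitutive exons.

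**Figure D1:**
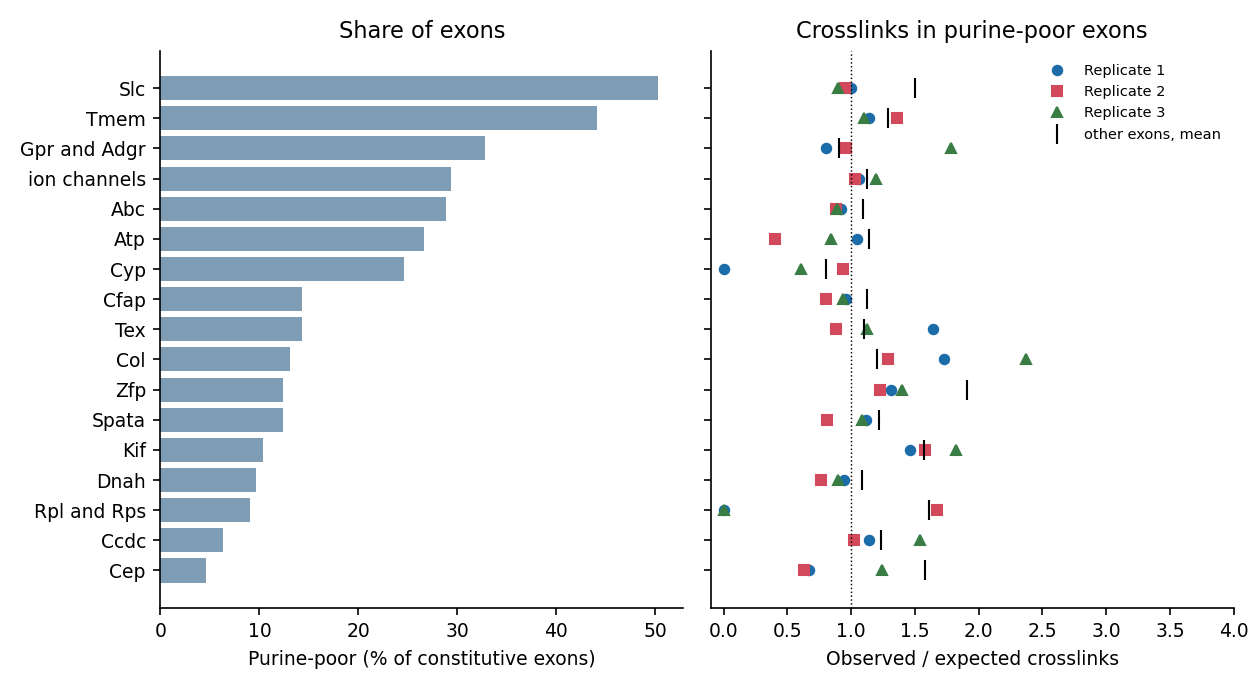
Left, share of the constitutive exons of each gene family that were purine-poor (%, bars from 0). Right, observed over expected crosslinks of these exons in each replicate (points) and the mean of the family's other constitutive exons (black bars). Slc and Tmem genes stand at the top with 50.3% and 44.2%, and the ratios of the Cyp and ribosomal protein (Rpl and Rps) genes rest on 2 and 1 crosslinks over the 3 libraries.

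The libraries held 348033, 619571 and 488719 crosslinks in replicates 1, 2 and 3. Purine-poor exons took 3043, 2588 and 5724 of them, which was 0.874% (95% Clopper-Pearson interval 0.844 to 0.906), 0.418% (0.402 to 0.434) and 1.17% (1.14 to 1.2) of the library. The intervals cover counting error only. Replicate 2 stood apart, with the most crosslinks in all and the fewest in these exons. Its sense crosslinks in the exons outnumbered antisense ones 7.94 times, against 29.0 times in replicate 1 and 65 times in replicate 3. Most results are given for each replicate, and the main ones also without replicate 2.

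Per kb of exon, purine-poor exons carried 1.26, 1.07 and 2.36 crosslinks, and the other constitutive exons 2.35, 2.31 and 4.92. The lower density in purine-poor exons was thus seen in 3 of 3 libraries. In all, 4531 purine-poor exons (24.9%) had a crosslink in at least 1 library, against 34.5% of the other exons and 42.5% of exons with at least 57% purines. Crosslinks were sparse: 2350 exons had 1, 1611 had 2 to 4, 429 had 5 to 9, 141 had 10 or more, and 13673 had none. A crosslink in every library was found in 446 exons (2.45%), against 5.90% of the other exons. Of the purine-poor exons, 1058 (5.81%) shared a stretch of 31 nt with another place in the genome and 393 overlapped an exon of another gene on the same strand, where the origin of a read is less certain.

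Crosslinks follow the amount of RNA as well as binding, so each exon was set against the rest of its own transcript. The expected number was the crosslinks per nt in all other exons of the transcript, untranslated regions included, times the length of the exon, summed over exons. Purine-poor exons had 1.12, 0.907 and 1.16 times the expected crosslinks in replicates 1, 2 and 3 (mean log2 ratio 0.08 ± 0.19 SD, n = 3). The other constitutive exons had 1.32, 1.48 and 1.34 times (0.46 ± 0.09), and exons with at least 57% purines 1.56, 2.13 and 1.49 times (0.77 ± 0.28). Purine-poor exons were therefore near the level of the rest of their transcripts, on either side of it in different libraries, while the other exons lay above it in every library. In replicates 1 and 3 alone, purine-poor exons lay above that level too, with a mean log2 ratio of 0.19.

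The difference between purine-poor and other constitutive exons was -0.23, -0.71 and -0.22 on the log2 scale (mean -0.39 ± 0.28 SD, n = 3). Purine-poor exons were lower in 3 of 3 libraries, and the exact two-sided sign-flip permutation test gave p = 0.25, which is the smallest that 3 libraries allow. The sign-flip tests measure the spread between these libraries. The edgeR and limma tests below also draw their variance from these 3 libraries and share it in part across exons or pentamers. Without replicate 2 the mean difference was -0.22. The same held inside transcripts: in 6511 transcripts with exons of both kinds, 17368 purine-poor exons had 0.912, 0.613 and 0.896 times the crosslinks per nt of their constitutive neighbours (exact sign-flip p = 0.25). Against only the other internal coding exons of the transcript, purine-poor exons had 0.912, 0.678 and 0.915 times the expected crosslinks. The other constitutive exons had 1.00, 1.05 and 1.02 times by the same reference. For both kinds of exon the higher ratios above were thus found only with a reference that included terminal exons and untranslated regions, while purine-poor exons were the lower of the pair with either reference.

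The ratio did not fall steadily with purine content. In replicates 1 and 3 it was 1.16 and 1.18 in exons with at most 41% purines, 1.09 and 1.14 above 41 to 44%, 1.13 and 1.16 above 44 to 47%, and 1.12 and 1.19 above 50 to 53%. Above 53% it rose, to 2.04 and 1.76 in exons with more than 65% purines. Replicate 2 went from 0.937 in the most purine-poor bin to 3.31 in the richest, its lowest value being 0.878 above 41 to 44%. The values just inside the threshold, above 46 to 47% purines, were 1.11, 0.903 and 1.14, and those just outside it, above 47 to 48%, were 1.19, 0.980 and 1.24.

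**Figure D2:**
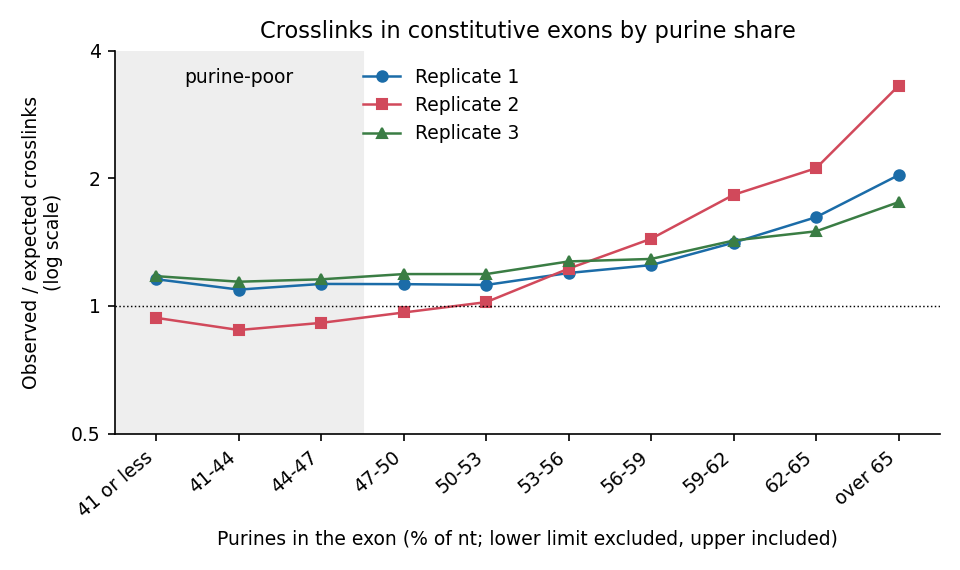
Observed over expected crosslinks (log scale) in constitutive exons grouped by purine share (% of nt), 1 line per replicate, with expected numbers from the rest of each transcript. Shading marks the purine-poor exons, whose bins lie between 0.878 and 1.18, and the richest bin reaches 2.04, 3.31 and 1.76.

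Among purine-poor exons, GAA content made little difference outside replicate 2. Those without GAA had 1.18, 0.799 and 1.24 times the expected crosslinks, and those with more than 2 GAA per 100 nt had 1.22, 1.12 and 1.19 times. The difference was 0.05, 0.49 and -0.06 on the log2 scale (mean 0.16 ± 0.29 SD, exact sign-flip p = 0.75), and without replicate 2 its mean was -0.00183. Among the other constitutive exons the same difference was 0.33, 0.84 and 0.30. Where neither kind of exon held a GAA, purine-poor exons differed from the others by 0.08, -0.26 and 0.12 (mean -0.02 ± 0.21). With more than 2 GAA per 100 nt the difference was -0.20, -0.61 and -0.23, lower in 3 of 3. Its mean was -0.35 ± 0.23 (exact sign-flip p = 0.25). That group had no upper limit and held 3729 purine-poor and 52504 other exons, so GAA content need not be equal within it. Above 0 to 1 GAA per 100 nt, the ratios were 1.089, 0.763 and 1.126 in purine-poor exons and 1.003, 0.811 and 1.093 in others. Above 1 to 2 they were 1.056, 0.921 and 1.111 against 1.097, 0.982 and 1.157, a smaller difference though lower in every library.

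Length went with the ratio in every library. Purine-poor exons under 100 nt had 1.24, 1.18 and 1.3 times the expected crosslinks, and those of 200 nt and over had 1.03, 0.783 and 1.02 times. The log2 difference was 0.27, 0.59 and 0.35 (mean 0.40 ± 0.16 SD, exact sign-flip p = 0.25), beside 0.28, 0.79 and 0.22 in the other exons. Without replicate 2 its mean in purine-poor exons was 0.31. With transcripts divided into 3 equal parts, exons in the last part differed from those in the first by -0.06, -0.14 and -0.05. With exons divided into 3 groups by U content, at 23.8% and 28.4%, the highest group differed from the lowest by 0.08, -0.33 and 0.19, with no common direction.

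Families differed in how their purine-poor exons stood against their own transcripts. Those of Slc genes, 141 of 1104 of them crosslinked, had 1.00, 0.95 and 0.897 times the expected crosslinks (mean 0.949 ± 0.052 SD, n = 3), and the other exons of these genes had 1.5 ± 0.45 times. Those of Abc transporters had 0.918, 0.884 and 0.891 times, against 1.1 ± 0.075 in the other exons. The ratios were 1.05, 0.403 and 0.839 in Atp genes, 1.14, 1.36 and 1.1 in Tmem genes, 1.06, 1.03 and 1.2 in ion channels, and 0.803, 0.957 and 1.78 in Gpr and Adgr receptors, and in none of these 4 families were purine-poor exons lower than the other exons in every library. In genes of the sperm tail, those of Dnah genes, which encode the motors of the axoneme, had 0.940, 0.765 and 0.897 times against 1.08 ± 0.012, and those of Cfap genes 0.963, 0.805 and 0.935 times against 1.12 ± 0.051. Of the 58, 92 and 105 crosslinks in purine-poor Cfap exons, 25, 63 and 40 were in the single gene Cfap65. In the Slc, Abc, Dnah and Cfap families, and also in the Spata, Cep and Zfp families, the purine-poor exons were lower than the others in 3 of 3 libraries. These differences between family members were not tested. Purine-poor exons of Kif genes, which encode kinesins, had 1.46, 1.58 and 1.82 times the expected crosslinks, with 1.57 ± 0.097 in the other exons. These ratios rest on 12, 18 and 26 crosslinks, of which Kif2a exon 3 alone gave 2, 1 and 13.

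Each exon was then tested against the rest of its transcript with edgeR's quasi-likelihood test, with the library as a block and Benjamini-Hochberg adjustment over 32240 constitutive exons whose reference held at least 20 crosslinks. Of 4524 purine-poor exons tested, 12 (0.265%) were higher than the rest of their transcripts at an adjusted p under 0.05, and none was lower (98 and 47 at an unadjusted p under 0.05). The background was 1.29% of all exons tested called higher and 0.0496% called lower. The share of purine-poor exons called higher was below that background, and the share of the other exons was 1.46%. The remaining 13680 purine-poor exons had too few crosslinks in their reference to be tested.

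Depth limited this test. The median tested purine-poor exon had 1.07 crosslinks expected over the 3 libraries, against 1.29 for the other exons, and 1584 (35.0%) had none, against 27.4%. Counts above the expected number were seen in 44.3% of tested purine-poor exons and 52.0% of the other tested exons, and in every single library in 4.89% and 9.93%. The median fitted log2 ratio was -0.30 in purine-poor exons and 0.03 over all exons tested, but most fitted ratios rest on a few counts: with empty exons set at 3 counts the medians were 1.00 and 0.98.

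The 12 called exons held 7 to 44 crosslinks and 34.7 to 46.9% purines, and their fitted log2 ratios ran from 1.84 to 3.68. Of these, 10 were above the expected number in every library. None shared 31 nt with another place in the genome, and 2 held no GAA. They came from genes for the cytoskeleton, for an SR protein kinase, for transport and for male germ cells, among others.

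Among cytoskeletal genes, Wasf2 exon 7 had 4, 7 and 6 crosslinks where 0.626, 0.512 and 1.08 were expected. Wasf2 encodes WAVE2, which activates the Arp2/3 complex to nucleate actin. All libraries lay well above expectation (log2 ratio 2.95 ± 0.64 SE, edgeR adjusted p = 0.000947). Against the other internal coding exons of the transcript the log2 ratio was 1.02 and not called (edgeR adjusted p = 0.903). Kif2a exon 3 had 2, 1 and 13 crosslinks where 0.710, 0.106 and 1.79 were expected, so that replicate 3 gave most of them. Kif2a encodes a kinesin that depolymerises microtubules, and its log2 ratio was 2.55 ± 0.66 (edgeR adjusted p = 0.0131), or 1.01 and not called against the other internal coding exons. Myo9a exon 8 had 6, 1 and 11 crosslinks where 0.939, 0.555 and 1.91 were expected (log2 ratio 2.36 ± 0.57). Myo9a encodes an unconventional myosin. Git1 exon 18 had 5, 4 and 6 crosslinks where 0.849, 1.06 and 1.16 were expected (log2 ratio 2.29 ± 0.62). Git1 encodes a scaffold protein that activates the GTPase of Arf proteins, and its 3 libraries were the most even of this group.

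Srpk2 exon 6 had 5, 1 and 21 crosslinks where 1.40, 0.476 and 3.55 were expected (log2 ratio 2.2 ± 0.51, edgeR adjusted p = 0.00279). Srpk2 encodes a kinase that phosphorylates SR proteins. Of its 27 crosslinks, 17 lay in 41 nt near the 3′ end (nt 63 to 103), where the capitals in its sequence above are densest. Against the other internal coding exons its log2 ratio was 0.73 and not called. Ap3d1 exon 22 had 6, 4 and 11 crosslinks where 1.24, 0.633 and 2.98 were expected (log2 ratio 2.17 ± 0.53, edgeR adjusted p = 0.00690). Ap3d1 encodes a subunit of the AP-3 adaptor of vesicle transport, and this exon had no GAA and 34.7% purines. Rangap1 exon 14 had 5, 5 and 10 crosslinks where 1.44, 1.08 and 2.48 were expected (log2 ratio 2.00 ± 0.54). Rangap1 encodes the GTPase-activating protein of Ran in nuclear transport, and against the other internal coding exons its log2 ratio was 1.02 and not called. Ssr1 exon 4 had 5, 0 and 12 crosslinks where 1.13, 0.144 and 2.02 were expected (log2 ratio 2.30 ± 0.64). Ssr1 encodes a subunit of the translocon-associated complex of the endoplasmic reticulum. With the other internal coding exons as reference its log2 ratio turned to -0.90.

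In male germ cell genes, Phf7 exon 4 had 8, 2 and 34 crosslinks where 3.56, 0.396 and 7.66 were expected (log2 ratio 1.84 ± 0.45, edgeR adjusted p = 0.00712). Phf7 encodes a chromatin reader of the male germ line, and of the 12 exons it was the only one also called against the other internal coding exons of its transcript (edgeR adjusted p = 0.0272). DESeq2 did not call it (adjusted p = 0.142). Rgs22 exon 3 had 3, 2 and 17 crosslinks where 1.58, 1.02 and 2.7 were expected (log2 ratio 1.92 ± 0.51). Rgs22 encodes a regulator of G protein signalling. The last of the called exons were Cast exon 17, with 2, 0 and 18 crosslinks against 0.984, 0.406 and 3.10, and Oscp1 exon 3, with 3, 2 and 2 against 0.118, 0.118 and 0.306. Cast encodes calpastatin, the inhibitor of calpain proteases, and replicate 3 held nearly all of its crosslinks. The log2 ratio of Cast exon 17 was 1.97 ± 0.58, or 1.07 and not called against the other internal coding exons. Without replicate 1 and without replicate 3 edgeR called none of the purine-poor exons higher (24 and 27 at an unadjusted p under 0.05). Without replicate 2 it called 12, of which 8 were among the 12 called in all libraries. DESeq2 called 8, of which 5 were shared, those of Wasf2, Myo9a, Git1, Ap3d1 and Oscp1.

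**Figure D3:**
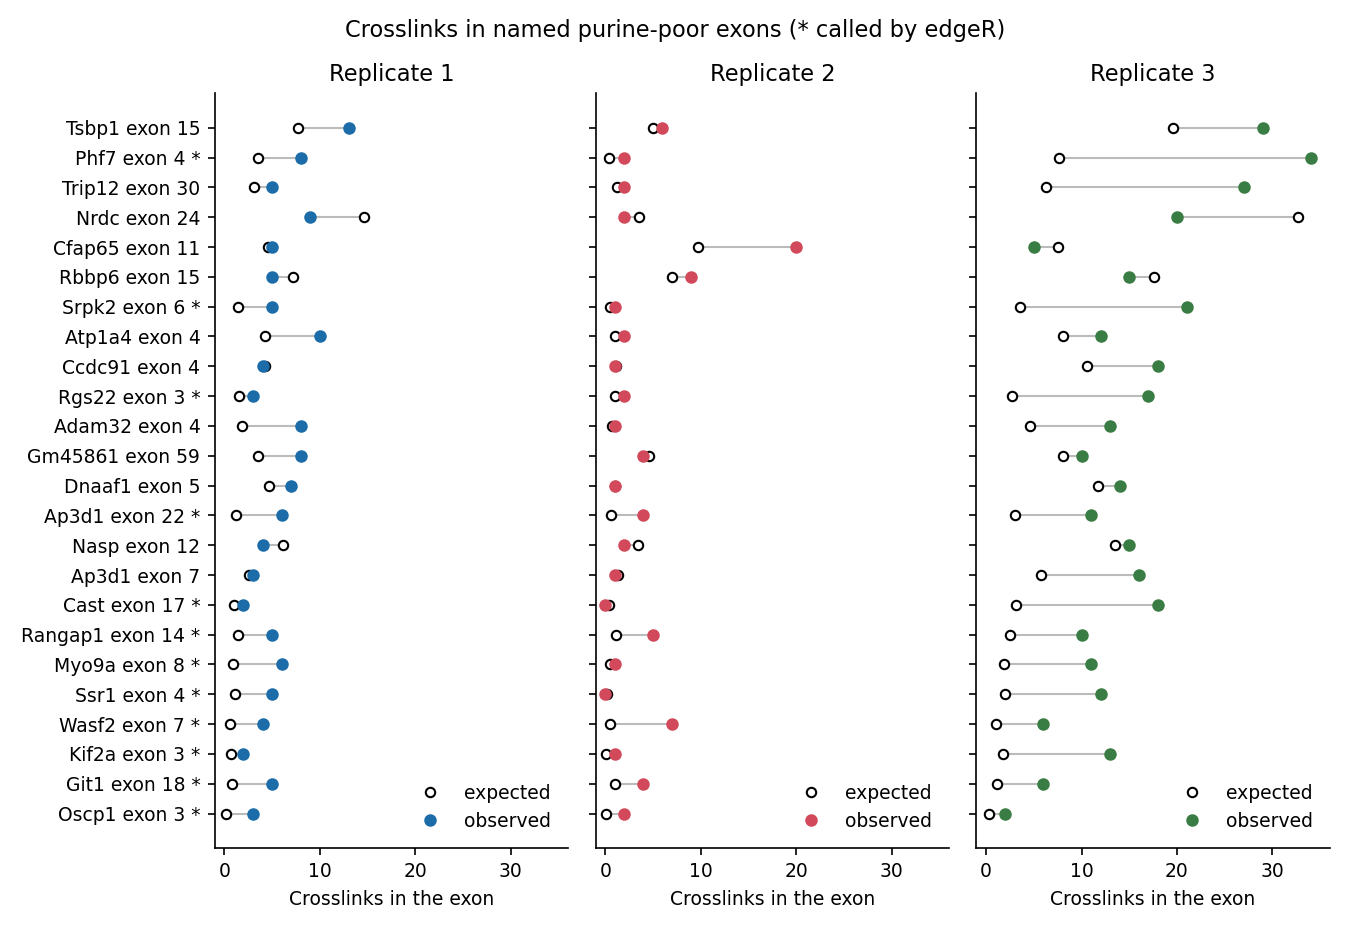
Observed (filled) and expected (open) crosslinks of 24 named purine-poor exons in each replicate, with expected numbers from the rest of the transcript. Exons called by edgeR carry a star. Phf7 exon 4 had 8, 2 and 34 crosslinks against 3.56, 0.396 and 7.66, and Nrdc exon 24 lay below expectation in every replicate.

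Many crosslinks did not by themselves set an exon apart from its transcript. Tsbp1 exon 15, of a testis-expressed basic protein, had the most crosslinks of all purine-poor exons, 13, 6 and 29, where 7.66, 4.96 and 19.6 were expected (log2 ratio 0.56 ± 0.37, edgeR adjusted p = 0.872). Its 57 nt hold a repeated unit, visible in its sequence, and 33.3% purines. Trip12 exon 30, of a ubiquitin ligase, had 5, 2 and 27 crosslinks where 3.11, 1.24 and 6.26 were expected (log2 ratio 1.51 ± 0.44), and missed the threshold (edgeR adjusted p = 0.0511). It shares sequence of 31 nt with another place in the genome. Nrdc exon 24, of the protease nardilysin, had 9, 2 and 20 crosslinks where 14.6, 3.49 and 32.7 were expected, below expectation in every library (log2 ratio -0.72 ± 0.41, edgeR adjusted p = 0.804). Cfap65 exon 11, of a sperm tail protein, had 5, 20 and 5 crosslinks where 4.55, 9.74 and 7.57 were expected, with replicate 2 about 2 times the expected number and replicate 3 below it. Atp1a4 exon 4, of the sodium pump subunit of sperm, had 10, 2 and 12 crosslinks where 4.25, 1.08 and 8.06 were expected (log2 ratio 0.87 ± 0.49, edgeR adjusted p = 0.796). Adam32 exon 4, of a metalloprotease family member, had 8, 1 and 13 crosslinks where 1.81, 0.697 and 4.56 were expected (log2 ratio 1.64 ± 0.53, edgeR adjusted p = 0.106).

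The others among the 15 most crosslinked exons lay nearer to expectation. Rbbp6 exon 15 had 5, 9 and 15 crosslinks, Ccdc91 exon 4 had 4, 1 and 18, Gm45861 exon 59 had 8, 4 and 10, and Dnaaf1 exon 5 had 7, 1 and 14. Their fitted log2 ratios were -0.12, 0.44, 0.46 and 0.33, each smaller than its SE or nearly equal to it. Ap3d1 exon 7, which held no GAA, had 3, 1 and 16 crosslinks where 2.53, 1.34 and 5.74 were expected (log2 ratio 0.93 ± 0.52, edgeR adjusted p = 0.789), so that of the purine-poor exons of this gene named here only exon 22 was called.

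Of the genes that the study followed by name, 3 held purine-poor constitutive exons. The exons of these genes whose splicing changed in the study were other ones, and the counts here do not describe them. Besides Phf7 exon 4, Nasp exon 12 had 4, 2 and 15 crosslinks where 6.12, 3.44 and 13.5 were expected (log2 ratio -0.21 ± 0.45, edgeR adjusted p = 0.884). Nasp encodes a histone chaperone. Exons 2 and 3 of Rad18, a ubiquitin ligase of DNA repair, had 1 crosslink each.

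Genes with many such exons showed low counts spread over them. In Hydin, which encodes a protein of the axonemal central pair, 22 of 23 purine-poor exons were crosslinked, with 20, 16 and 48 crosslinks where 22.7, 22.0 and 51.7 were expected. In Cfap65 all 13 were, with 25, 63 and 40 where 29.0, 65.4 and 46.8 were expected. Both genes were slightly below expectation in every library. In Usp34, which encodes a deubiquitinase, all 17 were crosslinked, with 23, 1 and 63 where 16.8, 8.03 and 51.9 were expected, replicate 2 being low. In Zan, which encodes the sperm protein zonadhesin, 20 of 30 were crosslinked, with 8, 11 and 13 where 9.38, 8.21 and 9.32 were expected. In Cacna1h, which encodes a calcium channel, 12 of 13 were crosslinked, with 7, 8 and 13 where 4.25, 4.03 and 6.15 were expected, above in 3 of 3.

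U was the most frequent nucleotide at the crosslink. In purine-poor exons U made up 46%, 41.9% and 47.3% of crosslinked positions, where 26.9%, 25.5% and 27.4% were expected from the composition of the same exons (ratio 1.69 ± 0.043 SD, n = 3). A and C were under their expected shares, at ratios of 0.643 ± 0.123 and 0.654 ± 0.045. The U ratio of the other exons was 1.67 ± 0.078. G was at its expected share in purine-poor exons, with ratios of 0.987, 1.03 and 0.971, but above it in the other exons, with 1.2, 1.1 and 1.21. Ultraviolet crosslinking favours uridine, and how far the U excess follows from that was not tested.

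**Figure D4:**
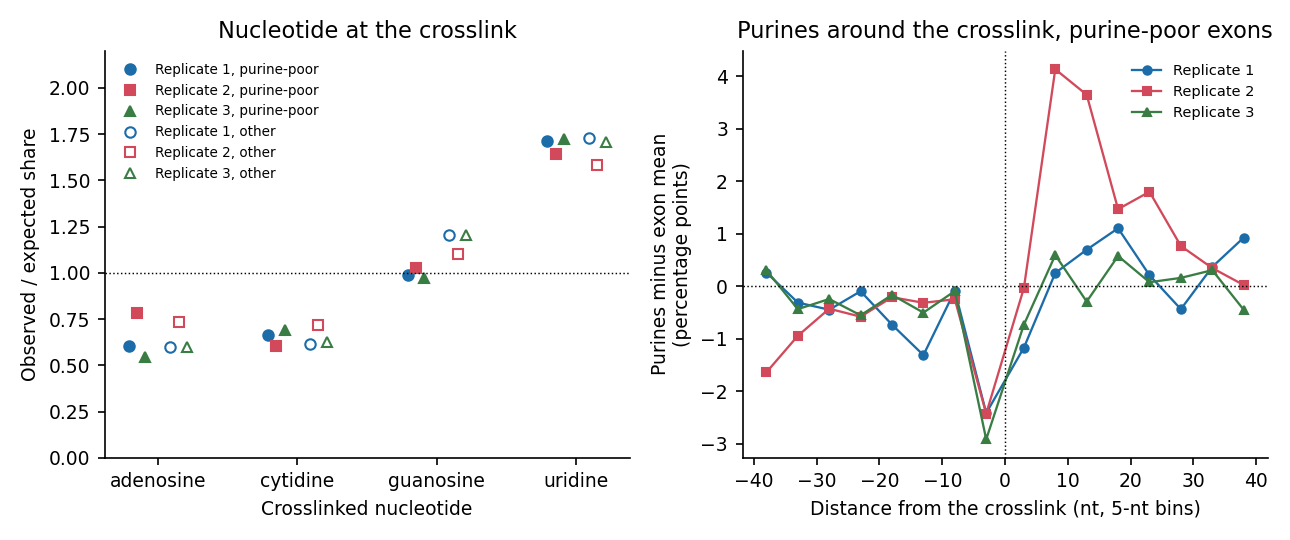
Left, observed over expected share of each nucleotide at crosslinked positions, filled for purine-poor and open for other constitutive exons, 1 symbol per replicate. Right, purine content minus the mean of the same purine-poor exons (percentage points) by distance from the crosslink in 5-nt bins. Uridine lies at 1.64 to 1.72 in purine-poor exons, and replicate 2 shows a purine excess of 4.14 points 6 to 10 nt downstream.

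Around the crosslink, purine enrichment was largest in replicate 2. Over the 20 nt downstream, purines exceeded the mean of the same exons by 0.22, 2.31 and 0.04 percentage points in replicates 1, 2 and 3. In replicate 2 the excess was 4.14 points 6 to 10 nt downstream and 3.65 points 11 to 15 nt downstream, where replicates 1 and 3 had 0.25 and 0.60 points, and 0.70 and -0.29 points. Just upstream, 5 to 1 nt before the crosslink, all libraries were below their exons, by -2.41, -2.42 and -2.91 points.

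GAA near the crosslink was also most frequent in replicate 2. It started within 30 nt of 54.5%, 59.1% and 53.4% of crosslinked positions, where 53.2%, 53.6% and 53.3% were expected over all positions of the same exons (ratios 1.02, 1.1 and 1.00, mean 1.04 ± 0.054 SD, exact sign-flip p = 0.25). The mean ratio within 30 nt was 1.01 without replicate 2. Within 10 nt the ratios were 1.02, 1.23 and 1.02. In replicate 2 GAA was most frequent 6 nt downstream, starting there at 3.4% of positions against 1.46% over the exons. In replicates 1 and 3 its highest frequencies were 2.05% at 21 nt upstream and 2.12% at 6 nt upstream, with no shared place. In the other constitutive exons the ratios within 30 nt were 1.01, 1.05 and 1.01. There GAA was already expected near 83.1%, 84.4% and 83.4% of positions, which leaves less room for a ratio above 1. Within 10 nt the ratios of the other exons were 1.06, 1.15 and 1.03, above those of purine-poor exons in replicates 1 and 3 and below in replicate 2.

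No pentamer was called near the crosslinks of purine-poor exons. Of 998 pentamers tested with limma, 0 were called at an adjusted p under 0.05 (0.0% in either direction), and 44 were higher and 37 lower at an unadjusted p under 0.05. For the difference from the other exons the counts were also 0 (0.0%), with 35 and 35 unadjusted. In the other exons 7 were called higher and 7 lower, among them GAAGA (log2 ratio 0.22, limma adjusted p = 0.00880), AAGAA (0.19) and AGAAG (0.20). The same pentamers had ratios of 1.08, 1.51 and 1.11 (GAAGA), 1.12, 1.47 and 1.05 (AAGAA), and 1.07, 1.41 and 1.09 (AGAAG) in purine-poor exons, above 1 in every library and largest in replicate 2. Their differences from the other exons were 0.07, 0.07 and 0.04 on the log2 scale, with limma adjusted p = 0.783, 0.754 and 0.864. The call depended on replicate 2 and on the window: without that replicate 14 pentamers were called, and with a window of 10 nt 6 were called of 803 tested.

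Crosslinks were denser inside the exons than next to them. In the 60 nt of intron on either side, crosslinks per nt were 0.0482 to 0.224 times those of the middle of the exon, in windows of 20 nt. The highest intronic values in replicates 1 and 3 were in the last 20 nt before the exon, at 0.181 and 0.175 times. The other constitutive exons showed the same contrast, with 0.0232 to 0.208 times in these windows. The amounts of exon and intron RNA were not measured, so the values were not corrected for them.

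Along the exon, replicates 1 and 3 were nearly flat and replicate 2 was not. Each exon was divided into 10 equal parts. In replicates 1 and 3 the parts had 0.782 to 1.1 times the crosslinks of a uniform spread, the last one being 0.935 and 0.782. In replicate 2 the first 5 parts had 0.589 to 0.825 times, the eighth 1.62 times and the ninth 1.497 times. The 5 parts at the 3′ end held 49.2%, 64% and 48.6% of crosslinks (53.9% ± 8.71 SD, n = 3), or 48.9% without replicate 2. GAA was at 1.44 per 100 nt in the first part and 1.23 in the last. In the other constitutive exons replicate 2 also rose towards the 3′ end, to 1.41 times in the eighth part.

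**Figure D5:**
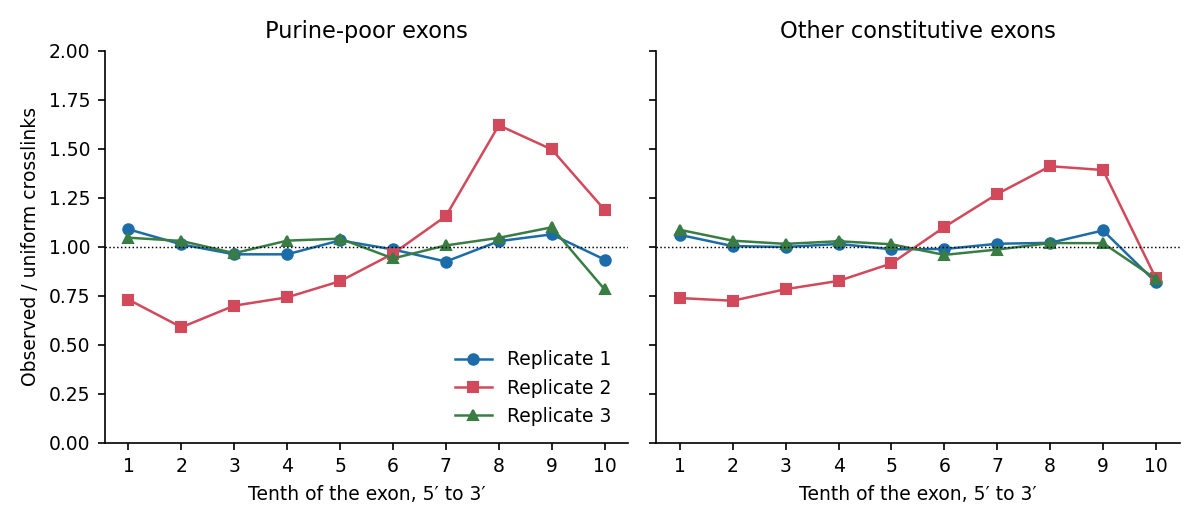
Crosslinks in each of 10 equal parts of the exon, from 5′ to 3′, over those of a uniform spread, in purine-poor exons (left) and other constitutive exons (right), 1 line per replicate. Replicate 2 rises to 1.62 in the eighth part of purine-poor exons, and replicates 1 and 3 stay between 0.782 and 1.1.

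Single nucleotides rarely recurred. Of 10863 crosslinked positions in purine-poor exons, 203 were crosslinked in at least 2 libraries and 3 in all 3, which is 0.0276% against 0.137% (134 positions) in the other exons. These shares also depend on the density of crosslinks, which was lower in purine-poor exons in every library, and were not adjusted for it. The 3 positions crosslinked in all 3 libraries were in exons shown above. One was a U at chr4:132919528 in Wasf2 exon 7, nt 113 of the exon, with 1, 2 and 1 crosslinks. Another was an A at chr14:30970010 in Phf7 exon 4, nt 82, with 1 in each library. The last was a G at chr17:34667752 in Tsbp1 exon 15, nt 13, with 1 in each library. The 41 nt around the Wasf2 position had 26.8% purines, and the stretches around the Phf7 and Tsbp1 positions, cut at the ends of the exons, had 32.3% and 33.3%.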

How the data were processed

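The authors processed the iCLIP libraries with the iMAPS pipeline. The submitters' processing notes name Trim Galore 0.6.7, Bowtie 1.3.1, STAR 2.7.9a, UMI-tools 1.1.2 and the mm39 build, while how reads with several places in the genome were treated is not given in the sources used here. Per the deposited files, each crosslinked nucleotide and strand has a raw count of cDNAs, neither normalised nor pooled, and all positions lie within GRCm39. Libraries held 348033, 619571 and 488719 crosslinks, and 3 counts, the limit that a count of 0 allows, equal 8.62, 4.84 and 6.14 CPM.

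Exons, sequences and reference lengths were read from GENCODE M39 and GRCm39 with Python 3.11.15. Crosslinks were counted on the sense strand in each exon and in the rest of its canonical transcript. Counts were tested with edgeR 4.0.16 (library as a block, offset log length, common dispersion 0.0380), pentamers with limma 3.58.1 (log2 of observed plus 0.5 over expected plus 0.5 windows, at least 20 expected in each library). Both were tested on simulated data. Over 3 libraries an exact two-sided sign-flip permutation test cannot go below p = 0.25.

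The named exons are the 15 most crosslinked among those tested with a crosslink in each library, the 8 with the highest and 4 with the lowest ratio among those called, the 5 most crosslinked without GAA, and those in genes followed by the study. Families are by gene symbol. Genes are those with the most crosslinked members, 5 of them, of which Cacna1h was taken by alphabetical order among ties. The exons, lists and tests were chosen with earlier results of these data known. Alternatives were DESeq2 1.42.0, an exact binomial test, another reference, other minimums, thresholds and windows, positions counted once, exclusion of repeated sequence and of the 1% of transcripts with the most crosslinks, and leaving out each replicate.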

Additional observations from a re-analysis of the deposited data

How the results depend on the processing

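The difference between purine-poor and other constitutive exons kept its direction under every alternative run, from -0.30 with the other internal coding exons as reference to -0.42 with a threshold of 50% purines, and from -0.47 to -0.22 with each replicate left out. With that reference the log2 ratio of purine-poor exons to the rest of the transcript moved from 0.08 to -0.27. A minimum of 20 crosslinks on the reference, chosen after the data were seen, gave 0.04 and a difference of -0.40, and the reported values already used no minimum. The number of purine-poor exons called higher was 12 in the main test. It was 1 with the other internal coding exons as reference and 0 with an exact binomial test in all 3 libraries. With DESeq2, other minimums or each position counted once it was 8 to 13, and with each replicate left out from 0 to 12. These counts include exons outside the 12 of the main test, of which 5 were kept with DESeq2 and 8 without replicate 2. Over all exons the count fell from 417 to 83 with the internal reference and to 29 with the binomial test. It was 310 with DESeq2, and from 23 to 257 with a replicate left out. The number of pentamers called was 6 with a 10 nt window and from 0 to 14 with each replicate left out, and from 0 to 7 for the difference from the other exons. The GAA ratio, the U ratio and the share of crosslinks towards the 3′ end moved by less than 1 SD in every alternative run. Among named exons the direction turned for Cfap65 exon 11 without replicate 2 (-0.27 to 0.71 with each replicate left out), Rbbp6 exon 15 without replicate 1 (-0.31 to 0.031), Ccdc91 exon 4 with the internal reference (-0.46) and without replicate 3 (-0.10 to 0.61), Dnaaf1 exon 5 with the internal reference (-0.19), Nasp exon 12 with each position counted once (0.035) and Ssr1 exon 4 with the internal reference (-0.90). Oscp1 exon 3 could not be tested with the internal reference. The cause of these changes was not tested. No paired analysis was possible because there was 1 group of libraries and replicate numbers could not pair samples across groups, while exons were compared within each library throughout. Depth limits single exons: 82.8% of the tested purine-poor exons had fewer than 3 expected crosslinks, so most single exons without crosslinks could not be told apart from their transcripts.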
